A study of Mus musculus with 34 samples.

Results

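T5758020 and T5963258 are drug-like compounds, known here by these code names alone, that the study classed as inhibitors of microexon splicing. Their effects on RNA were measured in N2A cells, the Neuro-2A line from a mouse neuroblastoma, kept for 24 h with 6.7 µM of either compound or with the vehicle, DMSO at 0.4%. The members were found by the treatment code of each library and were 5 of the 34 libraries of the series: 1 of T5758020, 1 of T5963258 and 3 of DMSO (A, B and C). The labels name no genetic change in these cells, and both compounds had been taken into RNA sequencing after lowering microexon inclusion in other assays of the study, so the direction of the microexon change was part of their choice.

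The reads that vast-tools assigned to exon events numbered 62132789 with T5758020, 47374713 with T5963258 and from 37427027 to 75978445 in DMSO, within the range of 33489970 to 75978445 over the whole series. Of the noradrenergic lineage genes, 10 of 13 were above 5 RPKM, among them Hand2 at 248 RPKM in DMSO. Th, the enzyme that starts catecholamine synthesis, was at 1.57 RPKM. Markers of fibroblasts, endothelium, immune cells, glia and liver were above 5 RPKM in 0 of 16 cases, with summed levels of 5.08 RPKM in DMSO, 7.18 RPKM with T5758020 and 7.34 RPKM with T5963258; Col3a1, Aqp4, Mog and Alb were at 0 in DMSO.

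Microexons are exons of 3 to 27 nucleotides (nt), of which some are included by neurons and skipped by most other cells. They are counted here by length alone, whether or not they are neuronal. Many keep the reading frame and add a few amino acids at the surface of proteins of vesicle transport, the cytoskeleton and cell adhesion. Inclusion of many neuronal microexons depends on the neuronal splicing factor Srrm4 and its relative Srrm3, which act from close upstream of the exon. Ptbp1 represses many neural exons, and Rest represses neuronal genes in other cells. Inclusion is given as percent spliced in (PSI), the share of a gene's transcripts that contain the exon as estimated from reads across exon junctions, and ΔPSI is a compound's PSI minus the mean of the DMSO libraries.

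The exons below are the ones on which the inclusion results turn: 9 microexons that were less included with a compound, 1 microexon that was more included with T5963258 (Tnik), the microexon of Mef2d, whose inclusion the study's screen reported on, and 2 short cassette exons (Acbd5 and Asph). Capitals mark the alternative exon and lower case the 15 nt of neighbouring exon on each side in the spliced transcript. Sequences are from GENCODE vM21 transcripts, with positions on GRCm38, and were found by gene, exon length and the lengths of both flanking introns, which matched for 21 of 27 exons looked for. Each of those printed is annotated as coding. The microexons of Cdon, Scyl2 and Hook3 were not among the matches.
Synj1, 24 nt, chr16:90971564-90971587, minus strand: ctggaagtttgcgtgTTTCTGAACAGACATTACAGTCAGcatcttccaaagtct
Clasp2, 24 nt, chr9:113878750-113878773, plus strand: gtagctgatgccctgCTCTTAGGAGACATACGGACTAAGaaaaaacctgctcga
Daam1, 27 nt, chr12:71958747-71958773, plus strand: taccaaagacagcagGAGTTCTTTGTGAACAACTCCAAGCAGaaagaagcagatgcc
Dock4, 27 nt, chr12:40794597-40794623, plus strand: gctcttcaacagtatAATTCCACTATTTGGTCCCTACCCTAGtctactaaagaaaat
Git2, 6 nt, chr5:114753148-114753153, minus strand: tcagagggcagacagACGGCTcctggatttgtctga
L1cam, 15 nt, chrX:73867022-73867036, minus strand: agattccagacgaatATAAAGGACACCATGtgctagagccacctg
Erc1, 12 nt, chr6:119734081-119734092, minus strand: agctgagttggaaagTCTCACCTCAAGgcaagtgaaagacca
Zmynd8, 12 nt, chr2:165852868-165852879, minus strand: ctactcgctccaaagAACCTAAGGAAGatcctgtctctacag
Ergic3, 15 nt, chr2:156015377-156015391, plus strand: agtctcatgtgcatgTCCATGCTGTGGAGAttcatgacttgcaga
Tnik, 24 nt, chr3:28625199-28625222, plus strand: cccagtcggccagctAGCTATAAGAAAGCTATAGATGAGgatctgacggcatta
Mef2d, 21 nt, chr3:88161781-88161801, plus strand: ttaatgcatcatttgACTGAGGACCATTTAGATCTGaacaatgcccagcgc
Acbd5, 33 nt, chr2:23080668-23080700, plus strand: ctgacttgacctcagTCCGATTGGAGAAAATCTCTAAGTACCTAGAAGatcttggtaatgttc
Asph, 45 nt, chr4:9637659-9637703, minus strand: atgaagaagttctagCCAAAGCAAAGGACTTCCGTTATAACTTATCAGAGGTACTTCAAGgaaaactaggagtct

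Microexon inclusion was lower with either compound. With T5758020, 86 of 593 microexons (14.5%), in 78 genes, were called decreased and 0 were called increased. With T5963258, 55 of 589 (9.34%), in 54 genes, were decreased and 1 was increased. An event was called where ΔPSI was at least 10 in size and its posterior probability of differing from DMSO, computed from the reads, exceeded 0.95. Over events of all classes the same rule called 0.508% decreased and 0.349% increased with T5758020, and 0.362% decreased and 0.3% increased with T5963258. When each DMSO library was set against the other DMSO libraries in the same way, it called 6 to 9 microexons decreased (0.939% to 1.42%) and 5 to 9 increased (0.849% to 1.42%). With a single library for each compound, these calls compare libraries and cover the reads' counting error and the spread of the 3 DMSO libraries, not the spread between repeated treatments.

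The shift was broad among microexons that were neither nearly always skipped nor nearly always included. Of those at 10 to 90 PSI in DMSO, 132 of 153 (86.3%) lay below the DMSO mean with T5758020, at a median ΔPSI of -9.26, and 61 (39.9%) were called decreased. With T5963258 127 of 155 (81.9%) lay below the DMSO mean, at a median of -7.38, and 44 (28.4%) were called. Single DMSO libraries called 2.94% to 5.33% of such microexons, and the SD over the 3 DMSO libraries had a median of 2.99 PSI and a 95th percentile of 9.95 PSI over 145 microexons. The share called decreased was 61.3% with T5758020 and 45.5% with T5963258 from 30 to 50 PSI, 51.5% and 50% (16 of 32) from 50 to 70 PSI, and 52.5% and 26.8% from 70 to 90 PSI. It was 8.16% and 4.08% from 10 to 30 PSI, and 11.6% and 5.12% from 90 PSI up. Below 10 PSI, where a fall of 10 PSI cannot be had, it was 0 for both.

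**Figure D1:**
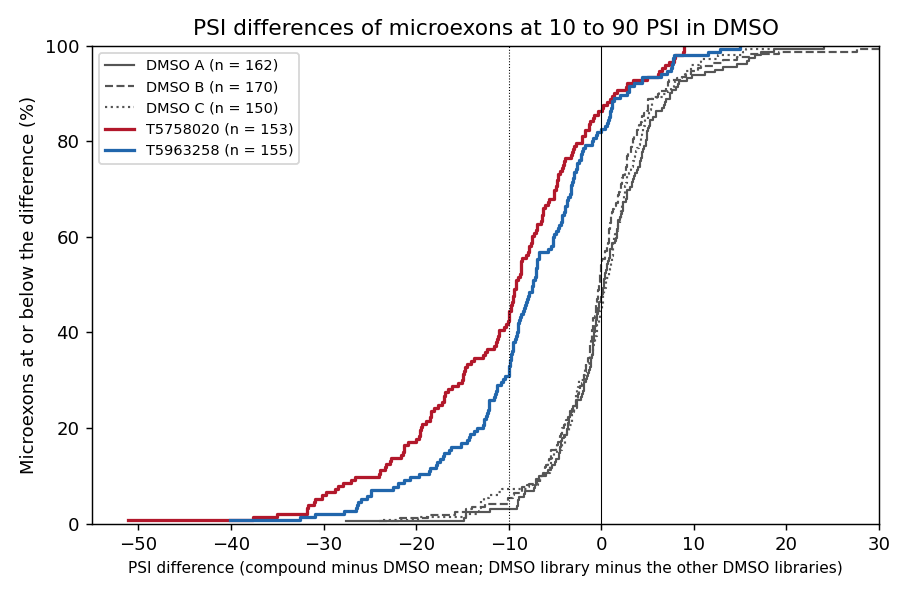
Cumulative share of microexons (y axis, percent) at or below each PSI difference (x axis) for microexons at 10 to 90 PSI in DMSO, with each compound against the DMSO mean and each DMSO library against the other DMSO libraries; the dotted line marks -10. The T5758020 curve lies left of the T5963258 curve over most of its length, with medians of -9.26 and -7.38 PSI, and the DMSO curves cross 0 near their middle.

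A model across libraries gave the same direction for both compounds at once. limma was fitted to the log2 odds of inclusion of 33001 events in 15 libraries, with each compound's lone library assumed to vary like the other groups, and events were called at a Benjamini-Hochberg adjusted p below 0.05 and a mean ΔPSI of at least 10. With the mean of both compounds against DMSO, 45 of 280 microexons (16.1%) decreased and 0 increased, beside 0.37% decreased and 0.0576% increased over all events in the fit. With T5758020 alone 59 microexons decreased by limma and with T5963258 alone 16 did, again with 0 increased. Of the microexons called from the reads, limma also passed 59 of the 84 in its fit with T5758020 and 16 of 54 with T5963258. Without weights for read number, limma called 0 microexons for both compounds together, with 98 of 280 at an unadjusted p below 0.05 and a lowest adjusted p of 0.211. The DMSO labels do not say whether libraries A, B and C came from separate cultures, so these p-values measure the spread between samples, which may be technical.

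The largest decreases with T5758020 among microexons covered in all 3 DMSO libraries were those of Cdon, Synj1 and Clasp2. The 12 nt exon of Prdm10, named after its values were seen, passed in DMSO A and B only, at 46.9 and 31.15 PSI, and was at 8.86 PSI with T5758020 and 39.7 PSI with T5963258. The 14 nt exon of Cdon, a cell-surface receptor of the immunoglobulin family that takes part in Hedgehog signalling, stood at 62.0, 60.8 and 79.8 PSI in DMSO A, B and C, at 16.4 PSI with T5758020 and at 27.4 PSI with T5963258. Both compound libraries lay below all DMSO libraries, by 51.1 and 40.1 PSI from the DMSO mean, and the mean of both fell by 2.82 ± 0.34 (SE) in log2 odds (limma, Benjamini-Hochberg adjusted p = 0.00067). These values rest on 266 event reads with T5758020, 119 with T5963258 and 74 to 91 in DMSO. The 24 nt exon of Synj1, a phosphoinositide phosphatase that helps strip the coat from clathrin vesicles, was at 64.8, 66.5 and 62.5 PSI in DMSO, 26.97 PSI with T5758020 and 33.6 PSI with T5963258. Its 95% Wilson intervals, which cover counting error only, were 20.99 to 33.9 PSI and 25.3 to 43.2 PSI, below every DMSO library (limma, adjusted p = 0.00429 for both together).

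Genes of vesicle and cargo transport followed. Scyl2, a pseudokinase of clathrin-coated vesicles, had a 12 nt exon at 81.7, 82.3 and 85.5 PSI in DMSO, 51.3 PSI with T5758020 and 58.3 PSI with T5963258 (limma, adjusted p = 9.48e-05). Hook3, which links cargo to the dynein motor, had a 6 nt exon at 62.9, 68.9 and 66.2 PSI in DMSO, 34.2 PSI with T5758020 and 48.9 PSI with T5963258 (limma, adjusted p = 0.000567). In both genes the DMSO libraries lay together above both compounds, and T5758020 was the lower of the compounds.

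Microexons of microtubule and actin genes moved by similar amounts. Clasp2, a protein of growing microtubule ends, had its 24 nt exon at 82.9, 80.9 and 75.2 PSI in DMSO, 44.6 PSI with T5758020 and 47.2 PSI with T5963258 (limma, adjusted p = 0.000732). Ckap5, a microtubule polymerase, had a 24 nt exon at 44.0, 45.3 and 44.9 PSI in DMSO, an SD of 0.67 PSI, with 13.7 PSI under T5758020 and 24.04 PSI under T5963258 (limma, adjusted p = 6.74e-06). Daam1, a formin that nucleates actin filaments, went from 61.7, 56.1 and 64.4 PSI in DMSO to 28.99 PSI and 34.8 PSI (limma, adjusted p = 0.0169).

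Exchange factors and regulators of small GTPases were also among the largest decreases. The 27 nt exon of Dock4, an activator of Rac, was at 81.4, 78.0 and 79.6 PSI in DMSO, 50.8 PSI with T5758020 and 53.3 PSI with T5963258, on 436 to 876 event reads (limma, adjusted p = 4.08e-05). The 6 nt exon of Git2, a GTPase-activating protein for Arf, was at 76.2, 84.7 and 75.02 PSI in DMSO and at 50.2 PSI and 50.9 PSI with the compounds (limma, adjusted p = 0.0072). For these exons the compounds differed by 2.52 and 0.67 PSI, and both lay below all 3 DMSO values. The 15 nt exon of Vav2, an exchange factor for small GTPases, was at 80.1, 85.0 and 93.3 PSI in DMSO, 55.1 PSI with T5758020 and 76.2 PSI with T5963258; it was called for T5758020 alone, and without DMSO library A also for T5963258. Both together did not pass limma (adjusted p = 0.098).

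With T5963258 the largest decreases included exons of a neuronal adhesion molecule and a presynaptic scaffold. The 15 nt exon of L1cam, an adhesion molecule of axons, stood at 80.3, 86.8 and 87.8 PSI in DMSO, 61.6 PSI with T5758020 and 58.5 PSI with T5963258. Both compound libraries were below the DMSO libraries, but on 74 to 162 reads the pair did not pass limma (adjusted p = 0.0633). The 12 nt exon of Erc1, a scaffold of the presynaptic active zone, was at 60.01, 59.5 and 58.7 PSI in DMSO, 39.9 PSI with T5758020 and 32.99 PSI with T5963258 (limma, adjusted p = 0.00108). The 24 nt exon of Herc4, a ubiquitin ligase, was at 86.1, 92.8 and 91.0 PSI in DMSO, 71.9 PSI with T5758020 and 64.7 PSI with T5963258 (limma, adjusted p = 0.0115). Erc1, Herc4 and L1cam were the members of this group that stood lower with T5963258 than with T5758020, by 6.9, 7.17 and 3.12 PSI, and none of these differences passed limma.

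The remaining exon of the largest decreases, 18 nt in Fmnl1, another formin, had the widest spread over DMSO of the microexons named here, an SD of 14.5 PSI (n = 3). It stood at 69.4, 97.96 and 88.0 PSI in DMSO, 55.4 PSI with T5758020 and 66.7 PSI with T5963258, with 47 to 133 event reads (limma, adjusted p = 0.659). It was called for T5758020, and without DMSO library A also for T5963258. The 1 microexon called increased was the 24 nt exon of Tnik, a kinase of the Wnt and cytoskeleton pathways, at 49.5, 44.7 and 43.8 PSI in DMSO, 40.9 PSI with T5758020 and 57.6 PSI with T5963258. Its posterior call was lost without DMSO library B or C, at ΔPSI of 10.9 and 10.4, and it did not pass limma (adjusted p = 0.861 with T5963258).

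**Figure D2:**
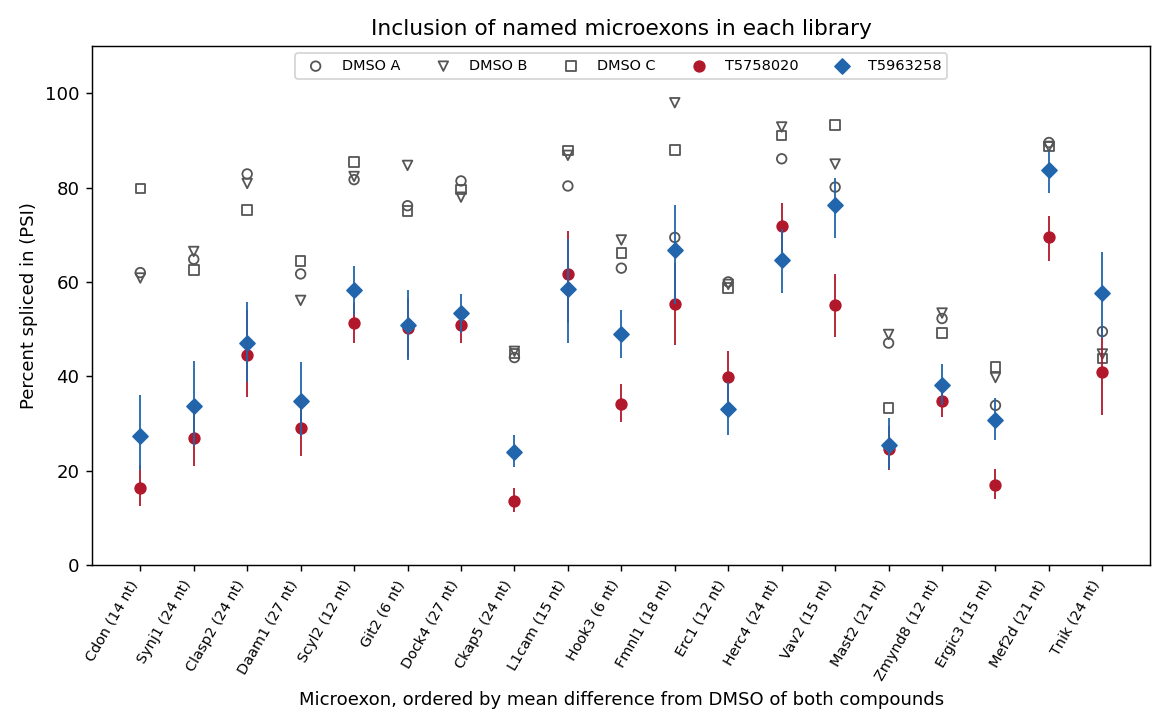
PSI (y axis, percent) of 19 named microexons in each of the 5 libraries (x axis, ordered by the mean ΔPSI of both compounds); open grey symbols are DMSO A, B and C, filled symbols the compounds, and bars their 95% Wilson intervals from reads. The microexons shown are those named for a call against DMSO or as assayed that were called with a compound, and for these both compounds lie below every DMSO library except in Tnik; the mean distance is largest for Cdon.

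Exons that the study itself had assayed were less uniform. Mef2d encodes a MEF2 transcription factor. Its 21 nt exon was at 89.5, 88.7 and 88.7 PSI in DMSO, 69.5 PSI with T5758020 and 83.8 PSI with T5963258. T5758020 lowered it by 19.5 PSI (limma, adjusted p = 0.000942), whereas the ΔPSI of -5.17 with T5963258 was under the size limit (limma, adjusted p = 0.688). The 15 nt exon of Ergic3, a protein of transport between the endoplasmic reticulum and the Golgi, was at 33.9, 39.8 and 42.0 PSI in DMSO, 16.9 PSI with T5758020 and 30.7 PSI with T5963258. It too was called for T5758020 alone, and without DMSO library A also for T5963258.

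Zmynd8 and Mast2 were called with both compounds. The 12 nt exon of Zmynd8, a reader of histone marks, was at 52.2, 53.4 and 49.2 PSI in DMSO, 34.7 PSI with T5758020 and 38.2 PSI with T5963258 (limma, adjusted p = 0.00731). The 21 nt exon of Mast2, a microtubule-associated kinase, was at 47.0, 48.9 and 33.3 PSI in DMSO, with DMSO C well below the others, and at 24.5 PSI and 25.4 PSI with the compounds (limma, adjusted p = 0.0893). The 27 nt exon of Trappc9, a vesicle tethering protein, was at 29.7, 31.6 and 33.2 PSI in DMSO, 27.2 PSI with T5758020 and 38.6 PSI with T5963258, and was not called. The 27 nt exon of Srrm4 was at 100 PSI in all 5 libraries.

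Of the microexon genes grouped by role, 4 lists each held several decreases and 0 increases, beside 0 and 1 increases over all microexons tested. The lists share genes and were made from knowledge of microexon genes, with earlier results of these data known. Over all microexons tested the shares decreased were 86 of 593 (14.5%) with T5758020, 55 of 589 (9.34%) with T5963258 and 45 of 280 (16.1%) with both by limma, beside which the counts of each list stand. Among genes of vesicle and membrane trafficking, 12 of 27 microexons were decreased with T5758020 and 9 of 28 with T5963258, at medians of -8.11 and -5.22 PSI, beside medians of -0.78 and -0.32 PSI over all microexons tested. With both compounds 9 of 22 decreased in limma. Members singled out after their values were seen are Sh3glb1, Picalm and Dctn1. The 24 nt exon of Sh3glb1, an endophilin, was at 42.9, 46.7 and 45.7 PSI in DMSO, 21.3 PSI with T5758020 and 26.5 PSI with T5963258 (limma, adjusted p = 1.61e-05). The 24 nt exon of Picalm, a clathrin assembly protein, was at 30.5, 34.6 and 33.6 PSI in DMSO, 14.5 PSI with T5758020 and 20.8 PSI with T5963258 (limma, adjusted p = 3e-05). Both compounds also lowered the 15 nt exon of Dctn1, a dynactin subunit, from a DMSO mean of 65.2 ± 2.96 PSI (SD, n = 3) to 42.4 and 48.2 PSI.

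In adhesion and axon genes 14 of 40 microexons were decreased with T5758020 and 8 of 39 with T5963258, at medians of -5.86 and -4.7 PSI, and 8 of 27 with both by limma. This list holds 3 microexons of Ptk2, the focal adhesion kinase, named after their values were seen. Its 21 nt exon was nearly always included in DMSO, at 98.7 ± 0.04 PSI (SD, n = 3), and was at 86.2 PSI with T5758020 and 90.4 PSI with T5963258; its 18 nt exon went from 56.6 ± 2.67 to 41.6 and 45.3 PSI, and its 9 nt exon from 92.5 ± 0.92 to 80.7 and 81.6 PSI.

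Genes of the cytoskeleton and small GTPases had 12 of 42 microexons decreased with T5758020 and 9 of 42 with T5963258, at medians of -5.74 and -3.76 PSI, and 6 of 30 with both by limma. Abi1, a subunit of the WAVE complex that drives actin branching, had its 15 nt exon at 93.6, 93.7 and 92.1 PSI in DMSO, 65.3 PSI with T5758020 and 76.4 PSI with T5963258 (limma, adjusted p = 1.63e-07); it was named after its values were seen. Genes of chromatin and transcription had 6 of 15 and 4 of 15 decreased, at medians of -7.25 and -5.17 PSI, and 4 of 13 with both by limma. Their members include Mta1, a subunit of the NuRD complex, whose 12 nt exon was at 78.4, 84.5 and 84.0 PSI in DMSO, 55.7 PSI with T5758020 and 66.0 PSI with T5963258 (limma, adjusted p = 0.00073). Mta1 too was named after its values were seen. The lists were not tested against other microexons, nor matched to them in DMSO inclusion.

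Microexons called decreased resembled the others at 10 to 90 PSI in reading frame. A length that is a multiple of 3 was found for 56 of 61 called with T5758020 (91.8%) and 83 of 92 not called (90.2%), and for 39 of 44 (88.6%) and 100 of 110 (90.9%) with T5963258. Their DMSO inclusion was higher, at medians of 59.6 against 31.8 PSI with T5758020 and 58.0 against 37.9 PSI with T5963258, a measure that the size limit for a call touches. The intron upstream had a median of 1930 nt for exons called with T5758020 and 1177 nt for those not called, and of 1578 and 1390 nt with T5963258. The intron downstream went the other way, at 1358 and 1819 nt with T5758020 and 1263 and 1563 nt with T5963258. Median exon length was 18 nt for called and not called exons with T5758020, and 15 and 19.5 nt with T5963258. These differences were not tested.

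Exons over 27 nt were called decreased in a smaller share of cases than microexons. Of cassette exons over 27 nt, 529 of 57344 (0.923%) were decreased and 178 (0.31%) increased with T5758020, and 335 of 56714 (0.591%) and 144 (0.254%) with T5963258, beside 0.4% to 0.528% decreased and 0.305% to 0.352% increased in single DMSO libraries. At 10 to 90 PSI, the share decreased with T5758020 was 33.3% to 48.6% in the 4 classes of microexon length, 21.2% for exons of 28 to 50 nt and 5.65% to 10.4% for longer ones. With T5963258 it was 40.7% for exons of 3 to 9 nt, 35.1% for 10 to 15 nt, 24.2% for 16 to 21 nt, 20.7% for 22 to 27 nt, 11.9% for 28 to 50 nt and 3.66% to 10.6% above. Single DMSO libraries reached 8.11% at most in any length class, and 6.25% at most above 50 nt. By limma both compounds together decreased 70 of 9150 such exons and increased 11; without DMSO library A 40 were decreased and without B 45.

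**Figure D3:**
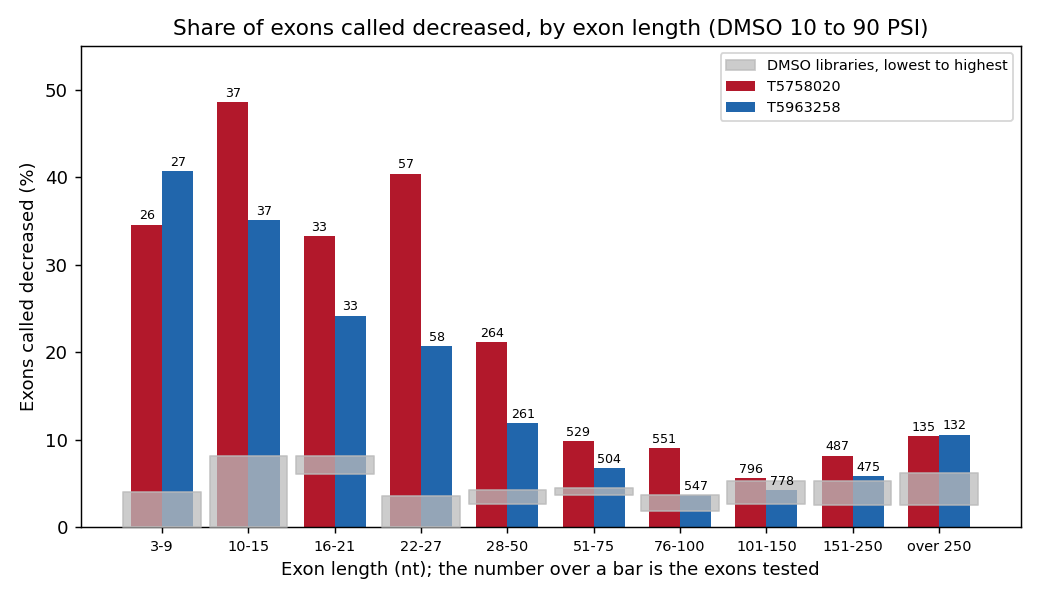
Share of exons called decreased (y axis, percent) by exon length (x axis, nt) for exons at 10 to 90 PSI in DMSO; bars are the compounds, grey bands run from the lowest to the highest DMSO library, and the number over a bar is the exons tested. The bars stand well above the bands up to 50 nt, with 21.2% for T5758020 and 11.9% for T5963258 at 28 to 50 nt. For longer exons the T5758020 bars, at 5.65% to 10.4%, lie above the bands, which end at 3.7% to 6.25%. Those of T5963258, at 3.66% to 10.6%, lie within or above them.

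The largest decreases among these exons were shared by both compounds in Reep6 and Acbd5. Reep6, a protein that shapes the endoplasmic reticulum, had an 81 nt exon at 88.0, 81.6 and 86.5 PSI in DMSO, 44.9 PSI with T5758020 and 47.0 PSI with T5963258 (limma, adjusted p = 0.004). The 33 nt exon of Acbd5, a peroxisomal membrane protein, was at 70.8, 70.7 and 72.0 PSI in DMSO, 36.3 PSI with T5758020 and 46.8 PSI with T5963258 (limma, adjusted p = 5.63e-05). The 45 nt exon of Asph, a hydroxylase of the endoplasmic reticulum and one of the assayed genes, was at 70.8, 56.5 and 57.5 PSI in DMSO and at 26.9 PSI and 40.8 PSI with the compounds (limma, adjusted p = 0.00622). In each of these the compound libraries lay below all DMSO libraries. Of the other assayed exons, the 36 nt exon of Zdhhc20, a palmitoyl transferase, was at 28.96, 41.4 and 31.3 PSI in DMSO and at 20.2 and 23.3 PSI with the compounds, and neither call held without DMSO library B, at ΔPSI of -9.91 and -6.85.

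Other exons of this group were less alike between the compounds. The 130 nt exon of Narg2 was at 73.5, 81.7 and 74.6 PSI in DMSO, 40.1 PSI with T5758020 and 80.9 PSI with T5963258, and did not pass limma with T5758020 (adjusted p = 0.102). The 638 nt exon of Rsbn1l was at 80.5, 80.9 and 84.0 PSI in DMSO, 63.0 PSI with T5758020 and 53.3 PSI with T5963258 (limma, adjusted p = 0.00402 for both). BC024814 (41 nt) with T5758020, and Gabbr1, which encodes a GABA-B receptor subunit, and Tpcn2 (50 nt), a lysosomal channel, with T5963258 completed the 4 largest, at ΔPSI of -35.9, -31.1 and -30.5; of these BC024814 passed limma for both together (adjusted p = 0.0417).

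The largest increase was in Cln6, a membrane protein of the endoplasmic reticulum, whose 107 nt exon was at 21.99, 29.3 and 20.6 PSI in DMSO, 67.0 PSI with T5758020 and 47.0 PSI with T5963258. It passed limma with T5758020 (adjusted p = 0.0394) but not for both together (adjusted p = 0.0805). The 165 nt exon of Atg2a, a lipid transfer protein of autophagy, was at 62.4, 60.7 and 67.2 PSI in DMSO and at 94.3 PSI and 91.5 PSI with the compounds (limma, adjusted p = 0.271). Rltpr and 2700097O09Rik with T5758020, Rnf213, Atg16l2 and Vwa5b2 with T5963258 were the others of largest increase, at ΔPSI of 24.04 to 31.35; those in the limma fit did not pass it, and the exons of Rltpr and 2700097O09Rik were outside it.

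Retained introns and alternative splice sites were called about as often as between DMSO libraries. Introns were increased in 186 of 86075 cases (0.216%) with T5758020 and 170 of 86598 (0.196%) with T5963258, and decreased in 62 (0.072%) and 58 (0.067%); single DMSO libraries gave 0.128% to 0.256% increased and 0.0805% to 0.183% decreased. Of distinct alternative acceptor events 199 of 13963 (1.43%) and 156 of 13782 (1.13%) were called, beside 1.17% to 1.28% in DMSO libraries. Of alternative donor events 155 of 10109 (1.53%) and 138 of 9938 (1.39%) were called, beside 1.45% to 1.69%.

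Of 9658 introns in the limma fit, 5 passed it with T5758020 and 0 with T5963258, where 255 had an unadjusted p below 0.05. A 521 nt intron of Pomt1, a protein O-mannosyltransferase, was retained at 20.8, 25.2 and 24.1 PSI in DMSO, 70 PSI with T5758020 and 11.5 PSI with T5963258 (limma, adjusted p = 0.0356 with T5758020). A donor site of Rad9, the gene of a checkpoint clamp subunit, was used at 100, 100 and 98.8 PSI in DMSO, 63.8 PSI with T5758020 and 100 PSI with T5963258 (limma, adjusted p = 0.00774 with T5758020). A donor site 187 nt longer in Rpl37, a ribosomal protein gene, was at 28.4, 25 and 30.4 PSI in DMSO, 62.6 PSI with T5758020 and 40.5 PSI with T5963258 (limma, adjusted p = 0.042 for both together). With T5963258 an intron of Doc2g stood at 70.5 PSI beside 39.6, 19.7 and 11.4 PSI in DMSO, and a donor of Eif4enif1 at 0.0 PSI beside 47.6, 35.6 and 33.3 PSI, and neither passed limma.

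**Figure D4:**
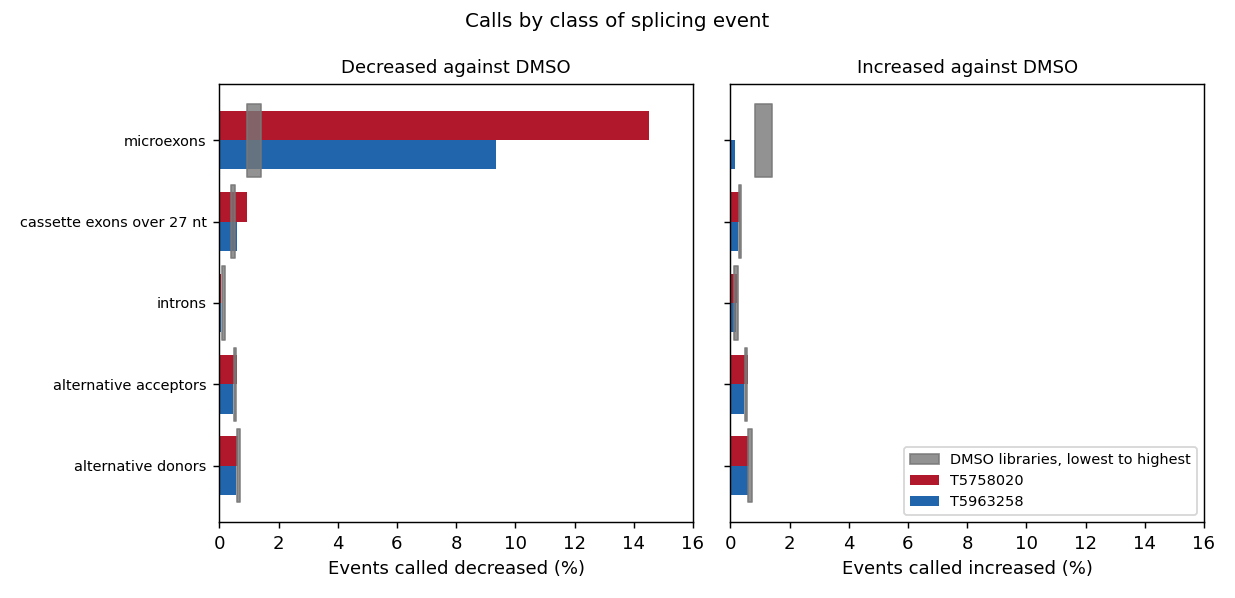
Share of events called decreased (left) and increased (right) against DMSO (x axes, percent) in each class of splicing event; bars are the compounds and grey bands run from the lowest to the highest DMSO library. Microexon decreases reach 14.5% with T5758020 and 9.34% with T5963258, beside a band of 0.939% to 1.42%; the bars of the intron and splice site classes lie at or near the bands.

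T5758020 and T5963258 were compared directly, as 1 pair at the same dose and time. limma called 0 of 33001 events (0.0%) different, with 1218 (3.69%) at an unadjusted p below 0.05, among them 42 of 280 microexons, and a lowest adjusted p of 0.314. From the reads of the 2 libraries, 1002 events (0.518%) were called higher with T5758020 and 1161 (0.6%) lower; for microexons 8 of 581 (1.38%) were higher and 27 (4.65%) lower. Over 148 microexons at 10 to 90 PSI in DMSO, T5758020 was lower for 98 (66.2%), at a median of -2.68 PSI, and the central 95% of the differences ran from -16.6 to 10.9 PSI. The T5963258 library was the less deep, and the part of depth in the lower number of calls was not tested. The comparisons with DMSO share their control libraries.

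Among microexons called against DMSO, those with the lowest unadjusted p between the compounds were in Psap, Abi1 and Git1, named after their values were seen. The log2 odds of inclusion, T5758020 minus T5963258, differed by -0.39 for the 9 nt exon of Psap, a lysosomal activator protein read at great depth (95% interval -0.51 to -0.26, adjusted p = 0.314 in limma), by -0.78 for Abi1 (-1.1 to -0.46) and by -1.18 for the 27 nt exon of Git1, a relative of Git2 (-1.68 to -0.68, both adjusted p = 0.856 in limma). Of the microexons described above, it differed by -1.0 for Ckap5 (95% interval -1.49 to -0.5), by -1.18 for Mef2d (-1.86 to -0.49), by -1.12 for Ergic3 (-1.88 to -0.37) and by -0.88 for Hook3 (-1.44 to -0.32); each had an adjusted p of 0.965 in limma. For Dock4 the difference was -0.15 (-0.65 to 0.36) and for Git2 -0.04 (-0.97 to 0.89), and the interval of Git2 still holds the difference of Hook3. In the other direction, the 21 nt exon of Zfyve27, a protein of neurite outgrowth, was at 46.7, 37.5 and 47.4 PSI in DMSO, 39.1 PSI with T5758020 and 18.99 PSI with T5963258. The 7 nt exon of Lrrc57 was at 69.2, 63.8 and 74.0 PSI in DMSO, 77.0 PSI with T5758020 and 58.6 PSI with T5963258; its call against DMSO was lost without DMSO library A or C. Vav2, given above, and the exons of Dpyd and Iffo1 completed the 5 of largest difference among those covered in all 3 DMSO libraries; Prdm10, at -30.9 PSI, and a 24 nt exon of Ttc28, at -24.1 PSI, passed in 2 of them.

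Of the other compounds of the same screen at the same dose, T5635931 decreased 85 of 597 microexons (14.2%) and T5985871 115 of 545 (21.1%) by the same read-based rule. The 24 nt exon of Synj1 was at 23.9 PSI with T5635931 and 24.2 PSI with T5985871, and that of Dock4 at 53.3 and 22.4 PSI. These are values side by side; no test was made between them and T5758020 or T5963258.

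Few of the genes with a called microexon were past 2-fold in expression. Expression was given as RPKM, reads scaled to gene length and library size, with 1 value for each compound and 1 for the merged DMSO libraries, so no difference of expression has a replicate check. Ratios are log2((RPKM + 0.5)/(DMSO RPKM + 0.5)), and in bulk RNA fewer cells of a kind and less RNA per cell cannot be told apart. Genes with a called microexon were matched to expression by symbol, so those under another name there were left out. With T5758020, 73 of 78 were matched with more than 5 RPKM in the compound or DMSO, at a median log2 ratio of 0.07. Of these 1 (Cdon, from 4.95 to 12.4 RPKM) was past 2-fold, and Cdon passed the limit of 5 RPKM only with the compounds. With T5963258, 52 of 55 were counted in the same way and 0 were past 2-fold, at a median of -0.01. The lowest ratios were -0.54 for L1cam and -0.42 for Zranb3. Over all genes, 1.14% were past 2-fold higher and 1.6% lower with T5758020, and 0.73% and 0.761% with T5963258. The counts for genes with a called microexon are near those shares and are no result about these genes.

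Over all genes, expression was mostly close to DMSO. Among genes above 5 RPKM, 8186 of 9652 (84.8%) lay within 0.5 log2 units of DMSO with T5758020 and 8873 of 9593 (92.5%) with T5963258. Past 2-fold were 110 higher (1.14%) and 154 lower (1.6%) with T5758020, and 70 higher (0.73%) and 73 lower (0.761%) with T5963258. Restricted to protein-coding genes, these were 35 higher and 109 lower, and 15 higher and 21 lower. Between the compounds 118 of 9523 genes (1.24%) were past 2-fold, and 9130 (95.9%) were within 0.5 log2 units.

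The protein-coding genes of highest ratio included stress and growth arrest genes. Gadd45b, a stress-induced gene of growth arrest, was at 6.21 RPKM in DMSO, 52.4 RPKM with T5758020 and 15.1 RPKM with T5963258, log2 ratios of 2.98 and 1.22. Sgk1, a kinase induced by serum and glucocorticoids, went from 36.7 RPKM to 150.4 and 71.0 RPKM. Mgarp, a mitochondrial protein, was at 5.57, 25.2 and 20.3 RPKM, and Ddc, the decarboxylase that makes dopamine, at 5.24, 16.9 and 13.6 RPKM. Nr4a2, a nuclear receptor of dopamine neurons, was at 3.79 RPKM in DMSO, 10.5 RPKM with T5758020 and 10.9 RPKM with T5963258, about the same with both. Sertad1, Ccnb1ip1, Phlda1, Agtrap and Ern1 with T5758020, and Nmi, Wwtr1, Tceanc2 and Anxa2 with T5963258, were the others named by size, at log2 ratios of 1.11 to 1.7 with that compound. In DMSO, Nr4a2, Agtrap, Nmi, Wwtr1 and Tceanc2 were under 5 RPKM, at 3.79, 2.24, 3.92, 2.22 and 4.55 RPKM. They passed the limit of 5 RPKM only with the compounds.

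Among the protein-coding genes named by size, the lowest ratio with either compound was that of Cdkn3, a phosphatase of cell cycle kinases, at 18.02 RPKM in DMSO, 3.64 RPKM with T5758020 and 6.02 RPKM with T5963258, log2 ratios of -2.16 and -1.51. Sumf2, a protein of the endoplasmic reticulum, shared the value of -1.51 with T5963258. Knstrn, a protein of the mitotic spindle, was at 114.6 RPKM in DMSO, 38.7 RPKM with T5758020 and 67.5 RPKM with T5963258. Serpinh1, the collagen chaperone, was at 5.86, 1.63 and 3.64 RPKM, and passed the limit of 5 RPKM only in DMSO. Lrrc61, with a log2 ratio of -1.43 with T5963258 and -0.4 with T5758020, differed most between the compounds among the lower genes named for T5963258.

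Of the splicing regulators measured, Celf3 alone was past 2-fold, and only with T5758020. Celf3, a neuronal RNA-binding protein of the CELF family, was at 105 RPKM in DMSO, 45.3 RPKM with T5758020 and 60.7 RPKM with T5963258, and was the 1 of 30 measured neural splicing regulators past 2-fold with T5758020; 0 of 30 were with T5963258. Srrm4 was at 10.4 RPKM in DMSO, 8.02 RPKM with T5758020 and 10.2 RPKM with T5963258, and Srrm3 at 18.5, 11.2 and 16.5 RPKM. Ptbp1 was at 476, 568 and 522 RPKM and Rest at 4.74, 6.57 and 5.68 RPKM. Rbm38, an RNA-binding protein of the p53 pathway that the study describes as a negative regulator of microexon splicing, was at 40.6, 79.1 and 58.3 RPKM. Its log2 ratios were 0.95 with T5758020 and 0.52 with T5963258. Celf6, Srrm3, Rbfox1, Msi2 and Elavl4 were also outside 0.5 log2 units with T5758020, at ratios of -0.83, -0.7, -0.66, -0.59 and -0.55. Celf6 and Rbfox1, at 5.11 and 5.07 RPKM in DMSO, passed the limit of 5 RPKM only there. Over all genes, 84.8% lay within 0.5 log2 units with T5758020. The medians of the list were -0.11 and -0.1, and 0 of 10 SR proteins and 0 of 20 hnRNP proteins were past 2-fold. Over all genes, 1.14% were past 2-fold higher and 1.6% lower with T5758020, and 0.73% and 0.761% with T5963258. At those shares lists of this size would hold few such genes, so their counts are no result about the regulators.

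Of exons within splicing regulators, the 34 nt exon of Ptbp2, whose skipping takes transcripts to decay, was decreased with both compounds, from 83.2, 87.0 and 81.6 PSI in DMSO to 73.9 and 70.2 PSI (limma, adjusted p = 0.0147). The 139 nt exon of Hnrnph3 was at 78.8, 80.2 and 80.6 PSI in DMSO, 68.6 PSI with T5758020 and 70.8 PSI with T5963258 (limma, adjusted p = 0.000829). Exons of Rbfox1, Celf4 and Celf6 were called with T5963258 alone, on 29 to 199 reads a library, and did not pass limma or were outside its fit. The ΔPSI of Ptbp2 with T5758020, -10.01, was just past the size limit. These regulator exons were named because they were called, outside the naming rule, and the number tested was not counted. Of all cassette exons over 27 nt, 0.923% were decreased and 0.31% increased with T5758020, and 0.591% and 0.254% with T5963258.

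Stress and growth lists had 1 or 2 members past 2-fold or none, beside 1.14% of all genes higher and 1.6% lower with T5758020, and 0.73% and 0.761% with T5963258. In the integrated stress response list these were Atf3 with T5758020, at 4.37 RPKM in DMSO and 9.28 RPKM, and Slc7a11 with T5963258, at 4.84 and 10.8 RPKM, each 1 of 23. Fos and Nr4a2 were the 2 of 8 immediate early genes past 2-fold with T5758020, and Nr4a2 the 1 of 6 with T5963258. Pfkfb4 and Ankrd37 were the 2 of 15 of the hypoxia response with T5758020. All of these were under 5 RPKM in DMSO and were counted only through the compound in which they were higher, so their counts are no result about the lists. Phlda1 was the 1 of 13 of the MAPK feedback list with either compound, at log2 ratios of 1.61 and 1.09 and 5.4 RPKM in DMSO. Srxn1, an antioxidant enzyme, was lower with T5758020, at 12.6 RPKM in DMSO and 4.48 RPKM. Of the unfolded protein response (17 genes), p53 targets (12), heat shock response (11), DNA replication (24), mitosis (24) and mitochondrially encoded genes (13), 0 were past 2-fold with either compound. Medians of all lists lay between -0.32 and 0.37.

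**Figure D5:**
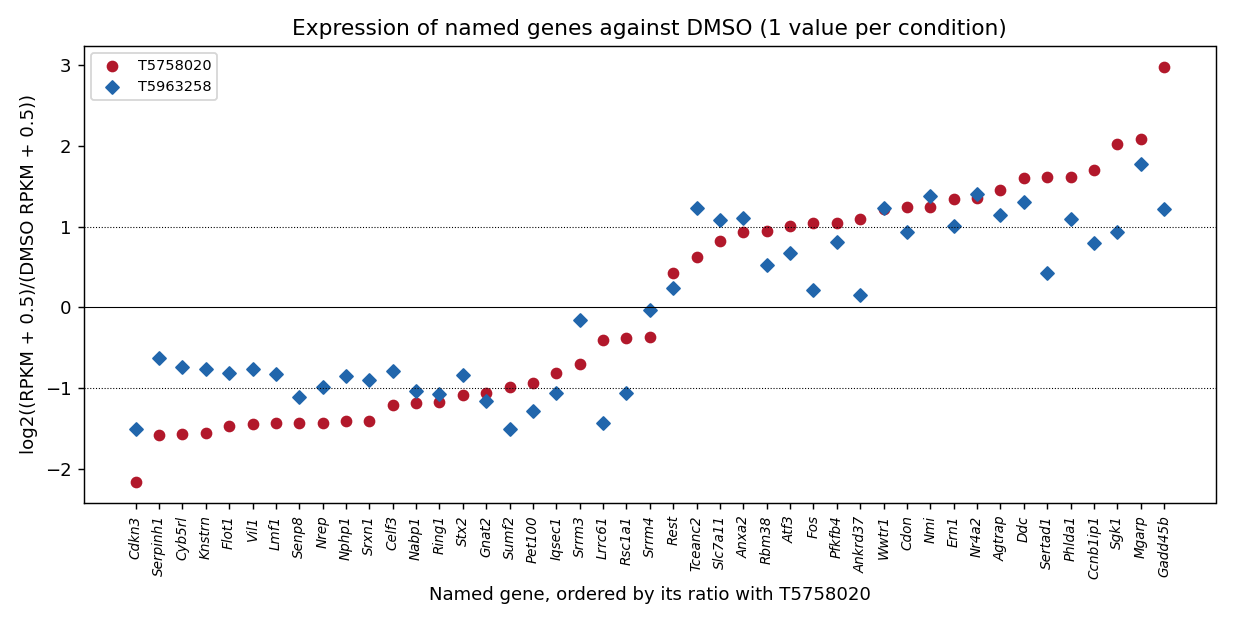
Log2 ratio of RPKM to DMSO (y axis, with 0.5 added to both) for each named gene (x axis, ordered by the ratio with T5758020); circles are T5758020, diamonds T5963258, dotted lines mark 2-fold and there is 1 value per condition. Gadd45b is highest at 2.98 with T5758020 and Cdkn3 lowest at -2.16, and for most genes the T5963258 point lies nearer 0.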

How the data were processed

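Poly(A) RNA of N2A cells was sequenced by the study. The authors made the deposited splicing table with vast-tools on mm9: it holds PSI as a percent for each event and library, with quality scores and read counts. The deposited expression table holds RPKM, 1 value per condition and a merged DMSO value; its other columns, the authors' log2 fold changes, p-values and FDR, and a further table of the authors' per-condition PSI estimates and calls were not used. The submitters' processing notes name Salmon 0.10.2; the kit was not strand-specific, so overlapping genes share reads.

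PSI values scored LOW or better and with balanced junction reads were kept (for introns, 15 reads or more with balance p above 0.05), with at least 2 of 3 DMSO libraries passing. Posteriors were beta distributions from reads with a uniform prior, DMSO being an equal mixture of its libraries (scipy 1.17.1). limma 3.58.1 in R 4.3.3 was fitted to log2((included + 0.5)/(excluded + 0.5)), weighted by reads, with robust variance moderation, for events of mean PSI 2 to 98; its 15 libraries were the 5 described, T5635931, T5985871 and 4 HDAC inhibitor groups of 2 libraries. p-values were adjusted over 33001 events. Both were tested on simulated data, in which 200 of 2934 exons were changed by 25 PSI. The read-based rule found 195 of these with T5758020 and 189 with T5963258. It also called 182 and 155 of the 2734 unchanged exons. For both compounds together limma found 145 and called 9 unchanged exons. For each compound alone it found 55.5% with T5758020 and 44.5% with T5963258.

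Named events were, with at least 20 reads in the compound and all 3 DMSO libraries passing, the 10 decreases and 3 increases of largest size among microexons, 4 per direction in the other classes, the assayed exons and the 5 microexons most different between compounds; named genes were the 10 highest and 10 lowest protein-coding genes past 2-fold per compound, list members past 2-fold and the regulators Srrm3, Srrm4, Rbm38 and Rest. Exceptions are said where they stand. The compounds, members and 26 gene lists were chosen with earlier results of these data known. The dose and compound names come from the study's supplementary data. Event positions are mm9 and were not converted. Each PSI rests on its reads, so precision follows depth. Some named items are not reported here. Alternatives are given in the closing section.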

Additional observations from a re-analysis of the deposited data

How the results depend on the processing

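No named exon or gene reversed direction, but several alternatives, such as another pseudocount or size limit, could not reverse one. Of the recomputed counts that answer a comparison, 44 of 71 stayed within 1.5 times the reported one. With 15 in place of 10 PSI, decreased microexons numbered 55 (T5758020) and 30 (T5963258), and longer cassette exons 171 and 134, or 27 for both compounds by limma. A limit of 15 nt on microexon length left 38 and 30. At 10 to 90 PSI in DMSO 257 and 160 longer exons were decreased. limma for each compound alone called 112 and 13 longer exons, and 16 microexons with T5963258. Without weights, limma called 0 microexons (98 at an unadjusted p below 0.05) and 0 longer exons (727 at an unadjusted p below 0.05) for both compounds, and without the limit on mean PSI it called 24 and 13, with more events tested; the cause was not tested. Posteriors called 2163 events different between the compounds where limma called 0. With more than 1 RPKM, and with no filter, genes past 2-fold were 350 and 491 higher and 329 and 459 lower with T5758020, and 255 and 329 higher and 229 and 395 lower with T5963258.

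Leaving out each DMSO library in turn gave 88 to 94 microexons and 588 to 590 longer exons decreased with T5758020, 61 to 67 and 380 to 401 with T5963258, and 38 to 45 and 40 to 54 for both by limma. Of 762 recomputed values of named exons, 697 kept their side of the threshold, 52 lost a call, 36 of them under limma, and 13 gained one. No paired analysis was possible because each compound has 1 library and so shares fewer than 2 replicate labels with DMSO. Each compound rests on a single library, and expression on 1 value per condition with no per-library counts used here, so depth sets the precision of PSI and no error can be given for RPKM.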

Other observations

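Small RNA genes, looked at after their values were seen, were many of the genes past 2-fold in these poly(A) libraries. With T5758020 57 of 175 small RNA genes above 5 RPKM in the compound or DMSO were more than 2-fold higher and 18 lower. With T5963258 44 of 160 were higher and 29 lower. The median log2 ratios were 0.34 and 0.32, beside 0.0 and -0.03 over all genes. Over all genes, 1.14% were past 2-fold higher and 1.6% lower with T5758020, and 0.73% and 0.761% with T5963258. A gene could pass the RPKM limit only through the condition in which it was higher. Each value has no replicate check, and the cause was not tested.

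An alternative acceptor of Slc35a4, a solute carrier, stood on opposite sides of DMSO with the compounds. The site 88 nt longer was used at 83.1, 84.1 and 67.5 PSI in DMSO, 44.8 PSI with T5758020 and 97.8 PSI with T5963258, and neither compound passed limma (Benjamini-Hochberg adjusted p = 0.079 and 0.762).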
